A study of Homo sapiens with 4 samples.

Results

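The genes described here encode the proteins of the cytosolic ribosome, RPS24 among them, together with a few close paralogs such as RPL7L1, RPL22L1, RPL26L1 and RPL39L. They were chosen by gene symbol: RPL or RPS with a number, or RPLP0, RPLP1, RPLP2 or RPSA. The deposited table of skipped exon events held 432 events of 77 such genes, of 65601 events in all. A mean of 20 or more junction reads over the 4 libraries was required, and 405 events reached it, which is 0.743% of the 54503 events that passed the same minimum. The deepest event left out had a mean of 18.5 reads and the shallowest kept had 22.25. The 405 events covered 302 distinct exons, with 239 events in 48 RPL genes and 166 events in 29 RPS genes. All 77 genes kept at least 1 event, with a median of 4 and a maximum of 19, in RPS2. Events of a gene often share junction reads, so they are not independent.

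The cells were 293T, an established human embryonic kidney line. The labels give 2 libraries of cells that received an antisense gapmer against the small nucleolar RNA (snoRNA) SNORD89, at 70 nM with a lipid reagent, and 2 from cells with no ASO, whose labels carry the same transfection protocol and name no control oligonucleotide. A gapmer is a modified DNA strand whose pairing with a target RNA leads RNase H to cut that RNA. RNA was taken at 48 hours, after a medium change at 24 hours, and poly(A) RNA was sequenced as read pairs of 150 bases. The table compares a first and a second set of 2 libraries, and no header or label says which set received the oligonucleotide. The deposited table's name puts SNORD89 before noASO, but a name was not used to assign the sets, and directions are given only as first against second set.

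Ribosomal proteins are needed in equal numbers, and their genes are among the most strongly expressed of a growing cell. Their mRNAs are short, and many start with a C followed by a run of pyrimidines, the 5′ terminal oligopyrimidine tract through which the mTOR pathway controls their translation. Several ribosomal protein genes are known to make alternative transcripts with an early stop codon, which are removed by nonsense-mediated decay, and many carry snoRNAs in their introns. RPS24, a protein of the small subunit that is mutated in some patients with Diamond-Blackfan anaemia, has a group of very short alternative exons at the end of its reading frame.

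Members took a large part of all junction reads (reads that span a splice junction). They held 7441547 and 8542563 reads in libraries 1 and 2 of the first set, against 11650493 and 10984484 in the second, which is 19.3% and 21.9% against 27.2% and 25.0% of all junction reads in the table. These are sums over events, so a read shared by several events is counted in each, and the shares depend on how many events a gene has. The median member event had 14896, 18082, 24167 and 23109 reads in the same order, against 222, 199, 157 and 171 for all events used. Library 2 of the second set stands apart, since 3280 events of the whole table had no read in it, against 513 to 624 in the other 3 libraries. Results are therefore also given without it where it matters. Of 14 markers of blood, fibroblast, liver, endothelial and pigment cells, 0 had enough junction reads to be measured. Of 9 markers of the labelled line 4 had, and by the coverage test described further on VIM passed as lower in the first set (log2 -0.56), CDH2 as higher (1.38), and GATA3 and KRT8 did not pass.

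Most ribosomal protein exons were included in nearly all transcripts. The inclusion level is the share of transcripts that carry the exon, from 0 to 1, after division of the reads by the length of each form. Of the 405 events, 315 (77.8%) had a mean level above 0.99, against 40.1% of all events used above 0.99. Depth differs between these groups. Among events with a mean of at least 1000 reads, 85.3% of 340 member events and 72.9% of 6661 other events lay above 0.99. Depth still differed there, with a median of 23348 reads in the member events and 1774 in the others. The median share of skipping reads in a member event was 0.0199%, against 1.05% over all events used. Every event used had a skipping read in some library, so the smallest share an event can show falls with its depth. Between 0.05 and 0.95 lay 22 member events (5.43%, against 24.6% of all), and 36 events of 32 exons lay under 0.05 (8.89%, against 9.30% of all).

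Exons in the middle of that range were few and mostly shallow. Of the 22, only 5 had a mean of at least 1000 reads: the 22-nt exon of RPS24, a 78-nt and a 217-nt version of 1 RPLP0 exon, a 449-nt exon of RPS9 and a 106-nt exon of RPL7L1. These 5 were singled out after their values were seen. The frame-keeping share of distinct exons, those whose length is a multiple of 3, was 40.9% of 237 exons above 0.99, 36.8% of 19 between 0.05 and 0.95 and 31.2% of 32 under 0.05, against 39.1%, 43.4% and 37.7% over all events.

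RPS24 (ENSG00000138326.14) had the only one of these 5 exons that most transcripts skipped. The exon is 22 nt long and lies at chr10:79799962-79799983 on the plus strand of GRCh37. It is exon 5 of a protein-coding GENCODE 29 transcript whose reading frame reaches the end of exon 4, so that the first 3 bases of the exon are the stop codon TGA. With the exon the frame has 130 codons before the stop. Without it the frame runs 3 codons into the next exon and ends at TAA after 133 codons. The table also holds a 25-nt version that starts 3 bases earlier, and a separate 18-nt exon upstream of it, each of which gives 131 codons. The forms are shown because the RPS24 result turns on which of them is spliced to exon 4. Capitals mark the alternative exon with its neighbouring bases in lower case, and in the skipped form they mark the first 15 bases of the next exon.

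RPS24 22-nt exon included: aaagTGAGCTGGAGATTGGATCACAGccga
RPS24 22-nt exon skipped: ggtgctggcaaaaagCCGAAGGAGTAAAGG
RPS24 25-nt version: agCAGTGAGCTGGAGATTGGATCACAGcc
RPS24 18-nt exon: aaaaagAAATGAAGTGTCTAGCAGtgagct

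The 22-nt RPS24 exon had 2323 and 3064 inclusion reads in the first set, against 4894 and 4298 in the second, and 4702, 5796, 7980 and 6975 skipping reads. Its inclusion level was 0.301 and 0.315 in the first set (95% Wilson intervals 0.291 to 0.311 and 0.306 to 0.325) and 0.348 and 0.349 in the second (0.340 to 0.356 and 0.341 to 0.358). Both libraries of the first set lay under both of the second, and the intervals, which cover counting error only, did not overlap between sets. The mean level was 0.308 ± 0.0102 (SD, n = 2) in the first set and 0.349 ± 0.000762 (SD, n = 2) in the second, a difference of -0.041. The difference was -0.033 to -0.048 when 1 library was left out at a time, and -0.040 without library 2 of the second set.

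Whether the RPS24 difference passed depended on how the error was set. In the authors' deposited table its p-value was 0.0718 and its false discovery rate (FDR) 0.421. A quasi-binomial model, whose error is the scatter between libraries of a set, gave p = 5.62e-05, the smallest p of the 405 member events, and a Benjamini-Hochberg adjusted p of 0.644 over all 54503 events. With a moderation of the dispersion that gives less weight to events of extreme spread, chosen after seeing the data, its adjusted p was 0.000114. On simulated data that moderation made more false calls than its threshold allows, so its adjusted p-values here are too small to be taken at face value. Restricted to events between 0.05 and 0.95, the same moderation gave an adjusted p of 0.0277, and RPS24 was the 1 member event called there (background 0.045%). An exact permutation test of 2 libraries against 2 cannot go under p = 0.333.

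The other RPS24 forms had few inclusion reads in the events used. The 25-nt version had 2 and 1 inclusion reads in the first set, against 0 and 1 in the second, beside the same skipping reads as the 22-nt exon. The 18-nt exon at chr10:79797723-79797740 had 0, 1, 4 and 1 inclusion reads beside 2344, 3081, 4938 and 4322 skipping reads, so 6 of 14691 reads in all. That event has the 22-nt exon as its next exon, so the 18-nt exon joined to a later exon was not measured. The remaining 3 RPS24 events used were a 66-nt, a 111-nt and a 210-nt exon, and their mean levels were 0.99992 to 0.99995. In the events used, nearly all reads at the end of the RPS24 frame were thus split between inclusion of the 22-nt exon and its skipping.

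**Figure D1:**
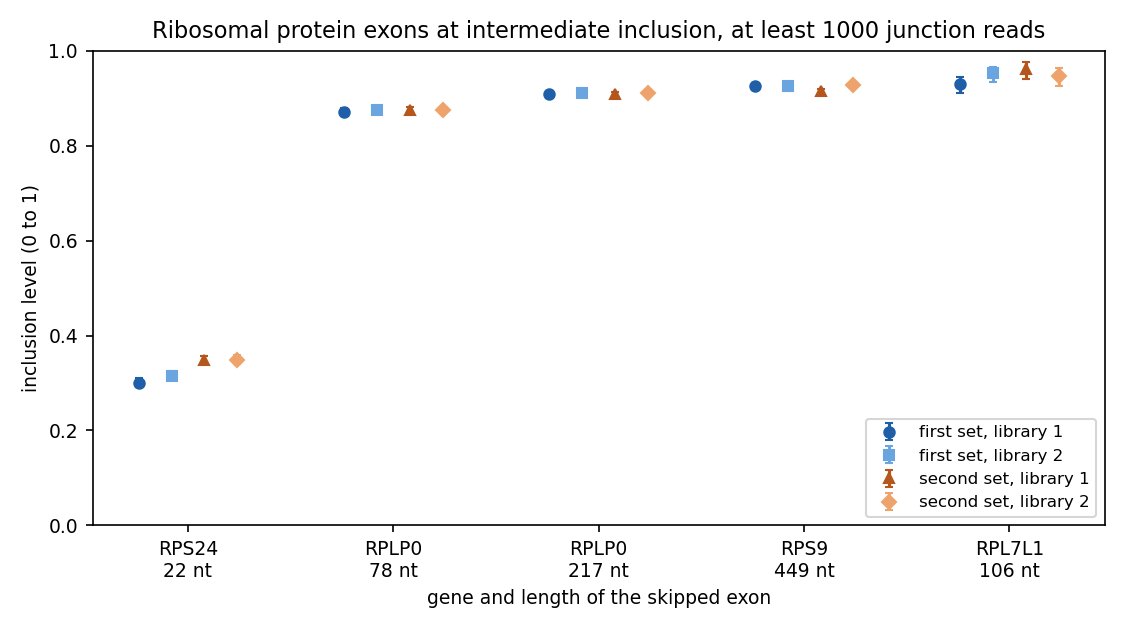
Inclusion level (0 to 1) of the 5 ribosomal protein exons between 0.05 and 0.95 with a mean of at least 1000 junction reads, 1 point per library with its 95% Wilson interval. The RPS24 exon lies near 0.3 with the first set (0.301 and 0.315) under the second (0.348 and 0.349), and the other 4 exons lie above 0.87 with the sets close together.

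RPLP0 encodes the protein that anchors the acidic stalk of the large subunit, to which RPLP1 and RPLP2 bind. Its 78-nt exon at chr12:120636357-120636434 had levels of 0.872 and 0.875 in the first set, against 0.875 and 0.875 in the second, a difference of -0.0022 at a mean of 10239 reads (quasi-binomial p = 0.683). Longer versions of the same exon, of 186 nt and 217 nt, shared its 712, 802, 1036 and 975 skipping reads and had mean levels between 0.910 and 0.958. The levels of the shortest version thus lay close together in the 4 libraries.

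RPS9, a small subunit protein, had no exon whose difference passed a test. Its 187-nt coding exon at chr19:54710144-54710330 had levels of 0.971 and 0.969 in the first set, against 0.968 and 0.975 in the second. A 449-nt version, which GENCODE 29 lists as a retained intron form, lay at 0.925 and 0.926 against 0.915 and 0.929. A 172-nt exon within it, which belongs to a transcript marked for nonsense-mediated decay, was included at 0.00714 and 0.00596 against 0.00661 and 0.00477. The sets overlapped in all 3 exons.

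RPL10, which joins the large subunit late and is needed for its release into translation, had a small difference at great depth. Its 163-nt coding exon at chrX:153628805-153628967 had 457 and 520 skipping reads of 46366 and 52671 in the first set, against 937 and 720 of 68117 and 61576 in the second. Its level was 0.980 and 0.980 in the first set, against 0.973 and 0.977 in the second, a difference of 0.0056. In this event fewer transcripts of the first set skipped the exon in both libraries. The quasi-binomial p was 0.00147 and its adjusted p 0.644, and the moderation added after seeing the data gave an adjusted p of 0.0155. RPL10 lay outside the rule for named exons and was singled out for that value. Measured against other neighbours, the same exon had 0, 5, 1 and 0 skipping reads in one event, a difference of -0.00014. In another it had 0, 1, 0 and 0, a difference of -4.42e-05. The sets overlapped in both of these events, so the difference depended on the exons it was measured against.

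RPS15A, a small subunit protein, had a rarely used 97-nt exon at chr16:18797562-18797658. It had 100 and 165 inclusion reads in the first set, against 115 and 116 in the second, among 19491, 22610, 31514 and 29889 reads. Its level was 0.00311 and 0.00443 against 0.00221 and 0.00235, so higher in both libraries of the first set. Its quasi-binomial p was 0.00254 with an adjusted p of 0.644. Its adjusted p was 0.052 under the added moderation and 0.00158 under limma with precision weights. This exon also lay outside the rule for named exons and was singled out after its values were seen.

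Over the whole gene group, 0 of 405 events passed in the authors' deposited table, at a difference of 0.1 or more and an FDR under 0.05, against a background of 2.69% of all 54503 events. That background is not matched for depth, and of the 6661 other events with at least 1000 reads 0 passed as well. The smallest FDR of a member event was 0.117, for an 80-nt exon of RPL7A. An unadjusted p under 0.05 in that table was held by 5 member events (1.23%), against 14.3% of all. With at least 1000 reads it was held by 0.588% of the 340 member events and 4.80% of the others. The quasi-binomial test called 0 member events, with a background of 0%, and 20 had an unadjusted p under 0.05 (4.94%, against 7.69% of all). On simulated data it found 42 of 200 changes of 0.3 in level at a dispersion of 1, and 21 of 200 at 3.6. A count of 0 from it therefore does not show that inclusion levels were unchanged. limma on the log2 ratio called 0 (background 0%), with 12 member events at an unadjusted p under 0.05 (2.96%, against 4.87% of all), and it found none of the changes put into simulated data. The added moderation called 2, RPS24 and RPL10, where its background was 0.202%, and limma with precision weights called 3, the same exons and that of RPS15A, which is a share near its background of 0.657%. The levels of the sets did not overlap in 91 member events (22.5%, background 22.8%), of which 37 were lower in the first set and 54 higher. Over all events used 7352 were lower and 5065 higher, and the difference between these splits was not tested.

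Most differences were small. The median absolute difference was 0.000167 over member events and 0.0114 over all events used, which are far less deep. With at least 1000 reads it was 0.000122 in member events and 0.00136 in the 6661 others, where depth still differed. Only 3 member events (0.741%, against 7.13% of all) differed by at least 0.1, RPS19 and RPL37A among them, and each had a mean under 100 reads. Of the 6661 other events with at least 1000 reads 0 differed by that much. Of the 340 events with at least 1000 reads, RPS24 had the largest difference, 0.041 in size, and the next was 0.014, for the 106-nt exon of RPL7L1.

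**Figure D2:**
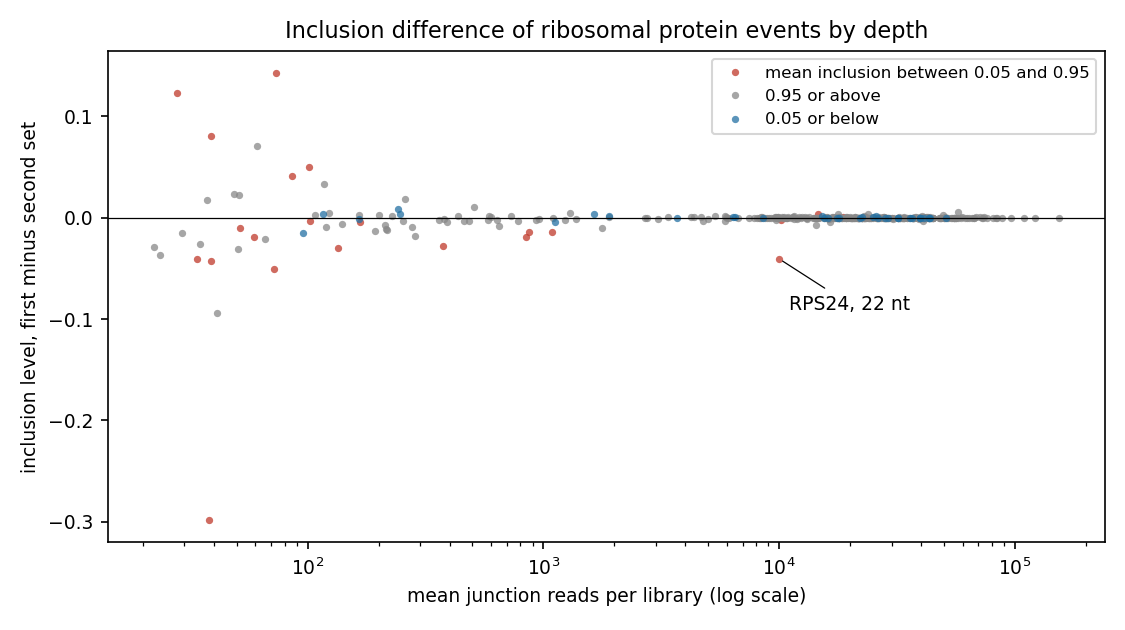
Difference in inclusion level (first minus second set) of the 405 ribosomal protein events against the mean junction reads per library on a log scale, coloured by mean inclusion level. Beyond 1000 reads the points lie within 0.014 of 0 except the 22-nt exon of RPS24 at -0.041, and differences over 0.1 are found only at low depth.

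RPS19, the small subunit protein most often mutated in Diamond-Blackfan anaemia, had a 55-nt exon at chr19:42373769-42373823. Its level was 0.903 and 0.738 in the first set, against 0.634 and 0.722 in the second, a difference of 0.14 at a mean of 73.75 reads (FDR 0.265 in the authors' deposited table). RPL37A, a zinc-binding protein of the large subunit, had a 59-nt exon at chr2:217384055-217384113 with levels of 0.230 and 0.446 against 0.207 and 0.223, from 28 reads on average. With another neighbour the same exon lay at 0.0796 and 0.114 against 0.0527 and 0.0576, and the 61-nt exon after it at 0.241 and 0.182 against 0.157 and 0.166. All 3 RPL37A events were higher in both libraries of the first set, but the last 2 share their skipping reads, and their FDR in the authors' deposited table was 0.516 to 0.841.

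The other named differences were small counts of skipping in exons that are otherwise always included. RPL7A, a large subunit protein, had 0 and 0 skipping reads in the first set, against 2 and 4 in the second for its 80-nt exon at chr9:136217095-136217174, which gave a difference of 0.070, and a 131-nt exon of the same gene had the same skipping counts and a difference of 0.019. RPL7 had 0, 0, 1 and 4 skipping reads for a 138-nt exon, a difference of 0.033. RPL13A showed 1 and 3 skipping reads in the first set, against 0 and 0 in the second for a 241-nt exon, a difference of -0.094. RPSA, a small subunit protein also called the laminin receptor, had 1, 1, 0 and 0 for a 166-nt exon, a difference of -0.012. In each of these exons the sets do not overlap because 1 set has no skipping read.

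The most deeply read exons show how rare skipping was. The exon with most reads, a 160-nt coding exon of RPS2 at chr16:2012498-2012657, had 37 and 47 skipping reads beside 119909 and 135969 inclusion reads in the first set, and 54 and 24 beside 182256 and 180381 in the second. Its level was 0.9994 and 0.9993 in the first set, against 0.9994 and 0.9997 in the second. The other exons of the top 5 were 3 further events of RPS2 and a 142-nt exon of RPL13, with mean levels between 0.9986 and 0.9999. RPL13 had 19 skipping reads in 383942.

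At the other end, 36 events of 25 genes were almost never included, although 31 of them matched an exon in GENCODE 29. Their inclusion reads summed to 4109 of 3080160 reads (0.133%), and the highest mean level was 0.0312, for a 105-nt exon of RPLP0 with 25 inclusion reads of 463. Among the 10 lowest were exons of RPL37A, RPS19, RPS13, RPS15A, RPL26, RPS14, RPL15 and RPL5. A 35-nt exon of RPL37A, from a transcript marked for nonsense-mediated decay, had 2 inclusion reads of 203807. A 115-nt exon of RPS19 had 2 of 158299, and a 105-nt exon of RPS13 had 2 of 72077. RPL5, which with RPL11 carries the 5S ribosomal RNA, had the most among these 10, with 14 of 87898 for a 154-nt exon, split as 2 and 10 in the first set, against 2 and 0 in the second.

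Splicing of 12 ribosomal protein genes is known from the literature to be regulated or to make an early stop: RPS24, RPL3, RPL10A, RPL12, RPS3, RPL22L1, RPL30, RPS13, RPS9, RPL17, RPL32 and RPS27A. Their 80 events held 0 calls in the authors' deposited table, with a smallest FDR of 0.421, that of RPS24. The background of calls is 2.69% of all events used, and 0% of the events outside the group with at least 1000 reads. The levels of the sets did not overlap in 14 (17.5%, background 22.8%), and 61 lay above 0.99. Retained introns and alternative splice sites, through which several of these genes are known to act, are other event types and were not analysed here. A 98-nt non-coding exon of RPL17 at chr18:47018106-47018203, singled out after its values were seen, is listed in 3 events. In the deepest it lay at 0.0245 and 0.0266 in the first set, against 0.0257 and 0.0231 in the second. With other neighbours and a mean of 59.25 reads it lay at 0.656 and 0.766 against 0.652 and 0.809, so its level depended on the exons it was measured against.

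Many ribosomal protein genes carry snoRNAs. In GENCODE 29, 27 of the 77 genes (18 RPL and 9 RPS) hold 59 snoRNA genes, up to 5 in a gene, as in RPL4, and SNORD89 is not among them. Of the 308 events matched to that annotation, 102 had a snoRNA in a flanking intron. Their median inclusion level was 0.9997, against 0.9995 for the other 206, and the sets did not overlap in 27 (26.5%) and 48 (23.3%), beside a background of 22.8%. The 163-nt exon of RPL10, which lies next to SNORA70, is in the first group.

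Junction reads also give a measure of how much spliced RNA each gene had, and here nearly the whole group was lower in the first set. For each gene the reads of its deepest event were divided by median-of-ratios size factors, and log2 of the normalised reads plus 0.5 was compared by limma over 9999 genes. Of the 77 genes, 76 were lower in the first set and 67 passed an adjusted p under 0.05 as lower (background 15.9%), while 1, RPL7L1, passed as higher (background 17.1%). The normalised reads did not overlap between the sets in 75 genes that were lower in the first set, where the background is 34.3%. The median log2 difference was -0.64, against 0.01 over all genes tested. Levels of different genes are not compared, because the reads of an event depend on its exons. The values are relative to the other genes of a library. In bulk RNA, a difference in part of the cells and a smaller one in all of them cannot be told apart.

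RPS2 had the most reads, 111956 and 133584 normalised reads in the first set, against 196516 and 179387 in the second, a log2 difference of -0.62 ± 0.28 (SE) with a limma adjusted p of 0.0918. RPL13 had 70354 and 84338 against 118821 and 111827 (-0.58 ± 0.25, limma adjusted p = 0.0724). Both genes were lower in both libraries of the first set but did not pass the test. RPL27A had 52532 and 61988 normalised reads against 99922 and 84257 (-0.69 ± 0.23, limma adjusted p = 0.0259). RPL32 had 43395 and 51060 against 82377 and 74417 (-0.73 ± 0.22, limma adjusted p = 0.013). The other genes among the 10 with most reads, RPL8, RPL13A, RPS18, RPL10, RPS19 and RPL36, had log2 differences of -0.48 to -0.70, and all of these except RPL10 passed.

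The largest falls were in RPL37, RPL38, RPL7, RPL39L and RPL35, all large subunit proteins or paralogs of one. RPL38 had 11458 and 14097 normalised reads in the first set, against 26216 and 21301 in the second, a log2 difference of -0.89 ± 0.17 (limma adjusted p = 0.000487). RPL35 had 36653 and 45097 against 75387 and 65473 (-0.79 ± 0.22, limma adjusted p = 0.00716). RPL37 and RPL7 were measured on shallow events, RPL7 from 68.1 and 102 against 161 and 142 normalised reads. RPS24 lay in the middle of the group with 16068 and 19278 against 29404 and 26059, a log2 difference of -0.65 ± 0.18 (limma adjusted p = 0.00662).

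RPL and RPS genes had similar values, and their difference was not tested. RPL genes had a median log2 difference of -0.65, with 41 of 48 lower by the test (background 15.9%). RPS genes had one of -0.64, with 26 of 29 lower. RPS genes ranged from -0.77 to -0.50, a narrow range beside the standard errors of single genes. Of the 12 genes with known regulated splicing, 11 passed as lower (background 15.9%). The other, RPS27A, which is made as a fusion with ubiquitin, had -0.52 with a limma adjusted p of 0.0506.

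**Figure D3:**
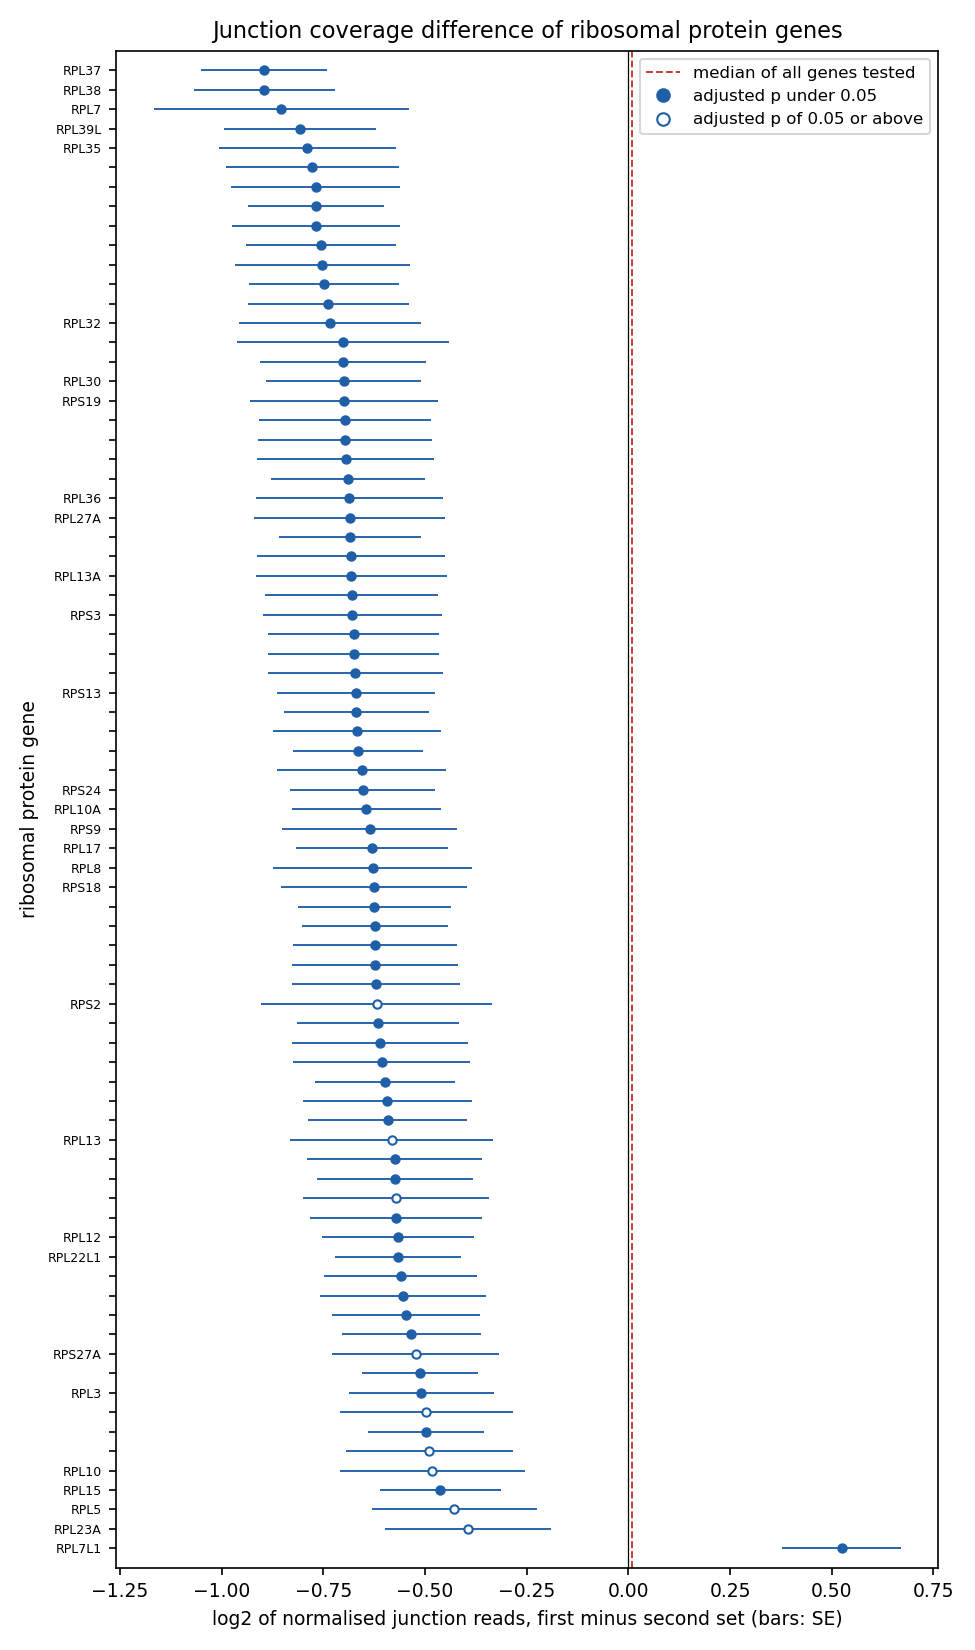
Log2 difference in normalised junction reads (first minus second set) of the 77 ribosomal protein genes, with names for those the text describes and bars of 1 SE, filled where the limma adjusted p is under 0.05. All genes except RPL7L1 (0.52) lie under 0, from RPL37 at -0.90 to RPL23A at -0.39.

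RPL7L1 went the other way. It had 2217 and 1909 normalised reads in the first set, against 1299 and 1574 in the second, a log2 difference of 0.52 ± 0.15 (limma adjusted p = 0.00733). It is a paralog of RPL7 with a role in large subunit assembly rather than a standard ribosomal protein, and its median coding transcript in GENCODE 29 is 3769 bases long, against a median of 687 bases over the 77 genes. The smallest falls were RPL23A (-0.39), RPL5 (-0.43), RPL15 (-0.46) and RPL10 (-0.48). RPL23A was the one gene lower in the first set whose sets overlapped by library, with 5707 and 8678 against 12685 and 6742 normalised reads.

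**Figure D4:**
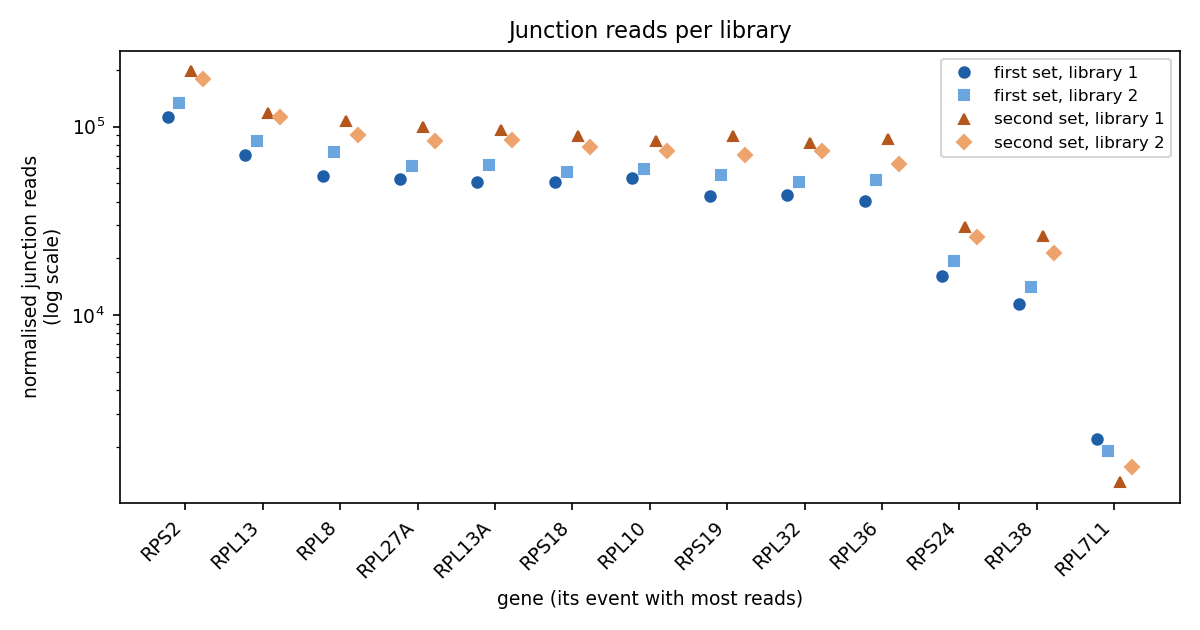
Normalised junction reads per library, on a log scale, of the 10 ribosomal protein genes with most reads and of RPS24, RPL38 and RPL7L1. Both libraries of the first set lie under both of the second in every gene except RPL7L1, where they lie above.

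The pyrimidine tract was looked for at the transcript starts. RefSeq promoter windows on GRCh38.p14 were found for 62 of the 77 genes. On the strand with the same sequence as the RNA, a run of at least 5 pyrimidines beginning with C within 5 bases of the annotated start was present in 50 of the 62 (80.6%), against 21.1% of 35116 promoters. The 12 without such a run were RPL7L1, RPL26L1, RPL9, RPL10, RPL13, RPL15, RPL17, RPL27, RPS15, RPS26, RPS27A and RPS29. The paralog RPL22L1 had a run of 10. The windows of RPS24, RPL35 and RPL7L1 are shown, 10 bases before and 20 bases from the annotated start, with the run in capitals, because RPL7L1 is the gene that differed in direction.

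RPS24 start, chr10:78033853-78033882 (plus strand): aatcgtggttCTCTTTTCCTCCTTggctgt
RPL35 start, chr9:124861938-124861967 (minus strand): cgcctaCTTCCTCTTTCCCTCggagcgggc
RPL7L1 start, chr6:42879606-42879635 (plus strand): gtgcggcgccgtagctaggagcggacgcca

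The 50 genes with a run had a median log2 difference of -0.68, with 47 lower by the test, and the 12 without had -0.56, with 8 lower and RPL7L1 higher. The share with a lower call is high in both groups beside the background of 15.9%. RPL26L1, without a run, had -0.50 (limma adjusted p = 0.00915).

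Depth and transcript length moved with the coverage difference in all genes, and ribosomal protein genes are deep and short. Among other genes the median log2 difference was 0.52 for 2341 genes with 20 to 100 normalised reads, 0.04 for 5183 with 100 to 1000, -0.35 for 1557 with 1000 to 5000, -0.49 for 253 with 5000 to 20000 and -0.45 for 30 with 20000 or more. In that last range 10 of the 30 other genes were lower by the test (33.3%), and of the 59 ribosomal protein genes there 51 were (86.4%), with a median of -0.64. By median coding transcript length it was -0.21 under 1000 bases and 0.48 at 3000 bases or more. Of the 172 other genes with a transcript under 1000 bases and at least 5000 reads, 130 were lower by the test (75.6%), with a median of -0.53. The part of depth and length in the ribosomal protein result was not tested.

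**Figure D5:**
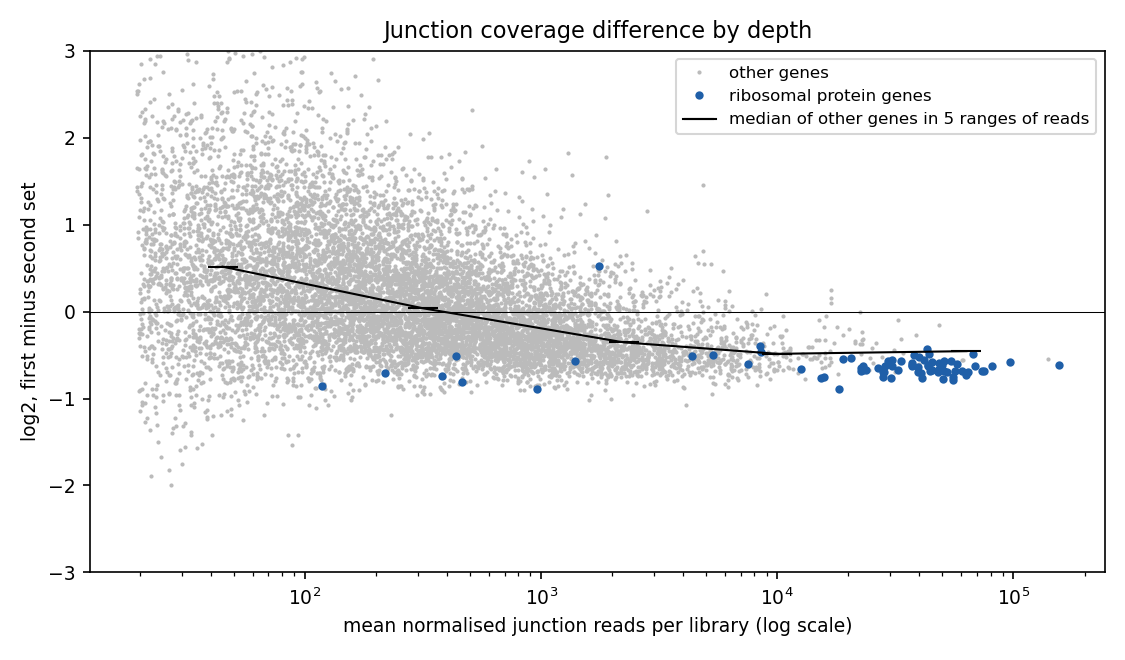
Log2 difference in normalised junction reads against mean normalised reads per library (log scale) for 9999 genes, with ribosomal protein genes in blue and the median of the other genes in 5 ranges of reads as black bars, and 41 other genes beyond 3 not drawn. Other genes fall from a median of 0.52 at 20 to 100 reads to -0.49 at 5000 to 20000 reads and lie at -0.45 beyond, and ribosomal protein genes other than RPL7L1 lie mostly under that line.

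The coverage count rests on single libraries. Without library 1 of the first set 2 of the 77 genes passed as lower (background 1.19%). Without library 1 of the second set 4 did, a smaller share than the background of 11.3%. Without library 2 of the second set 23 passed as lower (background 13.8%) and RPL7L1 as higher, and without library 2 of the first set 68 (background 12.7%) and 1. RPL7L1 did not pass without library 1 of the first set (0.42, limma adjusted p = 0.19) or of the second (0.38, limma adjusted p = 0.0886), and RPS24 passed only without library 2 of the first set, with limma adjusted p-values of 0.0548 to 0.139 without each of the others. The direction was kept by 76, 75, 76 and 76 genes below 0. With reads scaled to all junction reads of the library in place of size factors, the median of all genes moved to 0.28 and that of the members to -0.37, and 39 passed as lower (background 4.08%) and 1 as higher. Under that scaling 13.1% of all calls were lower, against 48.1% with size factors. The share of member reads, summed over events that can share reads, was 20.6% ± 1.86 (SD, n = 2) in the first set and 26.1% ± 1.54 (SD, n = 2) in the second. Its exact permutation p was 0.333 (two-sided), the smallest that 2 against 2 allows.

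Other genes of the translation machinery were measured beside them. A further 23 genes whose mRNAs carry the pyrimidine tract were all measured. Of these 13 passed as lower (background 15.9%) and 0 as higher (background 17.1%), with a median log2 difference of -0.50. FAU, a ubiquitin-like fusion that yields a small subunit protein, had -0.75 (limma adjusted p = 0.000368), and GNB2L1, the ribosome-bound scaffold RACK1, had -0.69 (limma adjusted p = 0.0187). The elongation factor EEF1A1 had -0.55 without passing (limma adjusted p = 0.123), and EIF4B and EIF3E, initiation factors, had -0.03 and 0.05. Of 71 mitochondrial ribosomal protein genes, 46 passed as lower (background 15.9%) and 0 as higher (background 17.1%), with a median of -0.46. Whether these groups differ from the cytosolic ribosomal protein genes was not tested.

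Ribosome assembly factors went both ways. Of 51 listed genes 47 were measured, and 17 passed as lower (background 15.9%) and 6 as higher (background 17.1%), with a median of -0.29. FBL, the methyltransferase of box C/D snoRNA particles, had -0.77 and NCL, nucleolin, had -0.54. DDX21, a nucleolar helicase, had 1.35 (limma adjusted p = 6e-07) and HEATR1, a factor of early small subunit assembly, had 1.38 (limma adjusted p = 8.87e-06). No skipped exon event of these 3 lists was called from the authors' deposited table, of 237, 301 and 241 events used in the same order. The background is 2.69% of all events used, and 0% of the events outside the ribosomal protein group with at least 1000 reads.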

How the data were processed

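The members and gene lists were chosen with earlier results of these data known. Per the file headers, the deposited table has the rMATS layout for skipped exons on junction reads, and per the submitters' processing notes cutadapt, STAR and hg19 were used. The rMATS version and annotation release are not given in the sources used here. The authors' values are raw junction reads, inclusion levels per library, the difference in level as a score from -1 to 1, and the p-value and FDR. Each deposited p-value and FDR was used as given. Recomputed levels matched the authors' values within 0.0005, their rounding. Coordinates are hg19 (GRCh37), printed with 1-based starts, and exon classes come from GENCODE 29 by the spacing of the 3 exons, with no position converted (308 of 405 events matched). Sequences of exons are from GENCODE 29 transcripts and start windows from RefSeq.

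Events with a mean of at least 20 reads were tested. The quasi-binomial model used squeezeVar of limma 3.58.1 in R 4.3.3, with the dispersion never under 1, and Benjamini-Hochberg adjustment over all events. Coverage per gene used limma with trend. The quasi-binomial test, that test with the added moderation, limma on events without precision weights and the coverage test were tested on simulated data. Not tested in that way were limma with precision weights, moderation along read depth and the moderated fit restricted by inclusion level. The deposited table holds reads per event and not per gene, so no count model was run. The libraries of each set are labelled biological replicates, and separate cultures are not named. Named exons were all RPS24 events, any called event, the 10 largest other differences whose sets do not overlap, the 10 lowest levels with at least 200 reads and the 5 with most reads. Some items that this rule selects are not reported here. Named genes were the 10 with most reads, the 5 largest and 5 smallest differences and the 12 genes with known regulated splicing. Ribosomal protein genes have many near-identical processed pseudogenes, and how the aligner placed reads that match both is not given in the sources used here.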

Additional observations from a re-analysis of the deposited data

How the results depend on the processing

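The count of 0 ribosomal protein events called from the authors' deposited table stayed 0 under 7 of 8 other thresholds, and with no read minimum it was 3, in RPS3, RPL13 and RPL12, each with a mean under 10 reads. Leaving out libraries gave no value for that count, since no called event was there to keep. The quasi-binomial count of 0 was also 0 with other read minimums and with moderation along read depth. It was 0 with limma on the log2 ratio and without each library in turn (0 to 0) as well, but these say nothing about stability: that limma test made no call when tested on simulated data, and 3 of the 4 fits without a library had only 3, 6 and 41 of all 54503 events at an unadjusted p under 0.05. It was 2 with the moderation added after seeing the data, 1 with that moderation among events between 0.05 and 0.95, and 3 with limma with precision weights. The junction coverage count of 68 genes became 40 with reads scaled to all junction reads of the library, and 2 to 69 when libraries were left out, as given above. It was 67 to 76 under the other 4 settings. The 1 gene whose direction turned was RPL23A, at 0.0595 (limma adjusted p = 0.864) when library 1 of the second set was left out, and -0.852 when library 2 of it was. For the 31 named exons, 145 alternative differences moved by no more than the spread within sets and 10 by more. No paired analysis was possible because the libraries in the table carry no replicate numbers. Depth limits the shallow exons: the 59-nt exon of RPL37A had levels of 0.230 and 0.446 within the first set. The cause of these changes was not tested.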
